A study of Homo sapiens with 8 samples.

Results

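The promoter of CDCP1 was 1 of 19962 protein-coding promoters measured by ChIP-seq in SUM159 cells, and it was chosen because its H3K9me3 differed between cells with and without guides. The values that chose it were the share of the 20001 bases within 10 kb of the transcription start site (TSS) lying under H3K9me3 peaks and the limits of those peaks over the gene, together with the H3K4me3 share within 1 kb of the TSS and the H3K4me3 width, each in All gRNA against No gRNA. These values are therefore given as a description, and no test of that contrast is attached to them. SUM159 cells are a cultured line from a triple-negative breast carcinoma, with a mesenchymal state. All cells carried a lentiviral dCas9-KRAB, a catalytically dead Cas9 joined to a repressor domain. All gRNA cells also carried 4 guides against the ZEB1 promoter, and No gRNA cells carried the empty guide vector. Native ChIP was done with antibodies against H3K9me3 and H3K4me3, with 2 libraries per mark and condition and 8 in all. The labels call them biological replicates. The guides were aimed at ZEB1 on chromosome 10 and not at CDCP1.

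CDCP1 (CUB domain-containing protein 1) is a transmembrane glycoprotein of epithelial and carcinoma cells. Kinases of the Src family phosphorylate its cytoplasmic tail, which then binds protein kinase C delta, and the receptor has been linked to anchorage-independent growth and invasion in breast cancer. H3K9me3 is the histone mark of constitutive heterochromatin, and the KRAB domain places it by recruiting a corepressor with an H3K9 methyltransferase. H3K4me3 marks the starts of active or poised genes, and very wide H3K4me3 domains are known at genes tied to a cell's identity.

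In GENCODE 44 on hg38, CDCP1 (ENSG00000163814.8) occupied chr3:45082277-45146422 on the minus strand, 64146 bases. Its canonical transcript had 9 exons, and intron 1 alone ran over 27584 bases. The outermost annotated TSS at 45146422 was used, and the canonical transcript began 44 bases further in. A further annotated transcript began 6827 bases downstream, inside intron 1. The nearest other annotated gene with a higher coordinate was the pseudogene RPS24P8 at chr3:45159774-45160175, so the window within 10 kb of the TSS held no other gene.

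4 stretches of this locus are shown because the H3K4me3 peaks of all libraries, an E-box of the kind ZEB1 binds, and the H3K9me3 shared by all libraries or held by No gRNA alone fall in them. Each reads 5′ to 3′ on the minus strand, as the gene does. In the promoter and in both H3K9me3 stretches capitals mark CpG dinucleotides, and in the start site stretch they mark a GC box match followed by an E-box match. The promoter bases come from RefSeq on GRCh38.p14 and lie at chr3:45146423-45146628, the 206 bases before the outermost start. The start site stretch, chr3:45146379-45146408, is the last 30 bases before the RefSeq start. The kept stretch, chr3:45150750-45150869 on hg38, is the centre of the region under H3K9me3 in all 4 libraries of that mark. The No gRNA stretch, chr3:45143282-45143401 on hg38, is the centre of the longest region under H3K9me3 in both No gRNA libraries and in neither All gRNA library.
promoter: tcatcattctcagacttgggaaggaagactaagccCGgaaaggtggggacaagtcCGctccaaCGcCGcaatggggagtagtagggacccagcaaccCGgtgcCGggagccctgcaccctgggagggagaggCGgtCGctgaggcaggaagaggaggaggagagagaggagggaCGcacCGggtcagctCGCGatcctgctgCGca
start site: ccggtCCGCCCgcgcgCAGGTGagtgagcc
kept: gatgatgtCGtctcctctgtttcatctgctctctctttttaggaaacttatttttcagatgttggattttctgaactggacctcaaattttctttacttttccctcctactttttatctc
No gRNA: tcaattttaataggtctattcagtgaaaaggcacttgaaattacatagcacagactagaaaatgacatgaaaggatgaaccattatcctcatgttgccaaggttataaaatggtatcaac

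The CDCP1 start was CpG-rich, and both H3K9me3 stretches were not. The 300-base RefSeq window, 250 bases before the start and 50 after, held 70.3% G and C, higher than in 81.2% of 27195 such windows, whose median was 58.3%. It held 27 CpG, against a median of 14, more than in 72.0% of windows. Its ratio of observed to expected CpG, 0.753, was higher than in 62.3%. Over the 2001 bases around the TSS the density was 64.0 CpG per kb. The region with H3K9me3 in all 4 libraries had 13.2 CpG per kb and the region of both No gRNA libraries had 12.7, close to the 12.3 per kb of the whole gene.

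Motif letters were searched on both strands of that 300-base window. CACCTG, the E-box to which ZEB1 can bind, occurred once, as CAGGTG at chr3:45146387-45146392, starting 14 bases before the RefSeq start. The share of all windows with CACCTG on either strand was 20.6%. The GC box GGGCGG occurred 3 times, starting 44 and 25 bases before the start and at base 2 after it, and 44.7% of windows held it. The AP-1 letters TGANTCA and the TATA letters TATAAA did not occur in the window, which says only that these letters are not in it, and 7.73% and 12.0% of all windows held them. A match is a string of letters and was not measured as a bound site.

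The targeted gene showed which libraries followed their labels. The H3K9me3 share within 10 kb of the ZEB1 TSS reached 79.4% and 82.0% with guides and 4.57% and 1.33% with the empty vector, as the H3K9me3 labels say. The H3K4me3 share within 1 kb of the ZEB1 TSS did not split by label. Both libraries labelled replicate 1, one of each condition, stood at 0%, and both labelled replicate 2 at 100%. The names of the deposited peak lists also place the libraries labelled All gRNA replicate 2 and No gRNA replicate 1 in the other group. With both exchanged, the H3K4me3 gap at ZEB1 was -100 points, All gRNA the lower, where it was 0 as labelled. The paper reports an almost total loss of H3K4me3 at the ZEB1 promoter with guides. The labels were kept here, and every H3K4me3 value is given for the library as labelled, so that no statement on that mark rests on the group means alone. Read counts are not part of these lists, and the depth behind each value is unknown.

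At CDCP1, H3K9me3 peaks covered far less of the promoter window in All gRNA than in No gRNA cells. In All gRNA 3752 and 3001 of the 20001 bases lay under H3K9me3. In No gRNA 12101 and 10857 did, or 60.5% and 54.3%. The groups did not overlap, and the lower No gRNA library lay 35.5 percentage points above the higher All gRNA library. The means were 16.9% ± 2.66 and 57.4% ± 4.40 (SD, n = 2 each), a difference of -40.5 percentage points. In chromatin from bulk cells, fewer cells with the mark and less of it per cell cannot be told apart.

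Among promoters with less H3K9me3 in All gRNA, CDCP1 ranked at position 1 for this gap, while in the other direction ZEB1 had a gap of 74.9 points. The call asked for a gap of at least 25 percentage points between the nearest libraries of the 2 conditions. By that rule 7 promoters, CDCP1 among them, had less H3K9me3 in All gRNA, 0.0351% of those measured, and 36 had more, 0.180%. The smallest gap inside the limit was 25.1 points and the largest outside it was 24.6. Because CDCP1 was chosen on this contrast, its rank carries no support of its own. The paper names genes with significant H3K9me3 changes by its own statistics, and CDCP1 is not among them. The median promoter differed by -0.922 points, and 2 promoters, CDCP1 included, had a difference at least as negative as that of CDCP1.

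The share at CDCP1 was high among promoters in No gRNA and also above most promoters in All gRNA. In the No gRNA libraries it exceeded the shares of 95.0% and 93.6% of promoters. In the All gRNA libraries it exceeded 79.6% and 72.9%. CDCP1 thus kept some H3K9me3 coverage in every library of that mark.

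The H3K9me3 libraries also differed as wholes in the direction of the CDCP1 difference. The All gRNA lists held 321975 and 342875 peaks, the No gRNA lists 401362 and 410355. Of all promoters, 61.8% and 66.4% had any H3K9me3 peak in the window in All gRNA, against 77.9% and 80.0%. The median promoter share, 3.59% and 4.78% in All gRNA, stood at 6.63% and 7.62% in No gRNA, while the genome under peaks was larger in All gRNA, 740 and 770 Mb against 723 and 724 Mb. When each list was cut to the same covered length by its strongest peaks, the CDCP1 difference was -42.9 points. That cut shortened mainly the All gRNA lists, which were the longer, and left the No gRNA shares at 60.5% and 54.3%. It could hardly do other than hold or widen the difference, so it is no check on the peak numbers. The part of the peak number in the result was not tested.

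The H3K9me3 peaks over CDCP1 were weak. Across the 4 libraries the peaks in the gene and 10 kb upstream had fold enrichments, as the authors' caller gave them, from 1.39 to 1.91. Their q-values ran from 0.0340 to 0.875, and the peak with q = 0.0340, chr3:45149120-45155873 in No gRNA replicate 2, was the only 1 of the 38 at or under 0.05. With peaks at q of 0.05 or less alone, the share was 0% in both All gRNA libraries, 0% in No gRNA replicate 1 and 33.8% in No gRNA replicate 2. The groups then overlapped, and the difference fell to -16.9 points and rested on 1 peak. At q of 0.01 or less the share was 0% in all 4 libraries.

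Peak limits showed where the window differed. All gRNA replicate 1 had 3 peaks over the gene and 10 kb upstream and replicate 2 had 4, against 14 and 17 in the No gRNA libraries. Within 10 kb of the TSS the counts were 1 and 2 against 5 and 5. No peak in All gRNA lay between the TSS and 11328 bases downstream. In No gRNA replicate 1 a peak of 7287 bases, chr3:45145578-45152864, lay across the TSS, with a fold enrichment of 1.77 and q = 0.267. In No gRNA replicate 2 no peak crossed the TSS, and the nearest, chr3:45147257-45147705, ended 835 bases upstream of it.

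**Figure D1:**
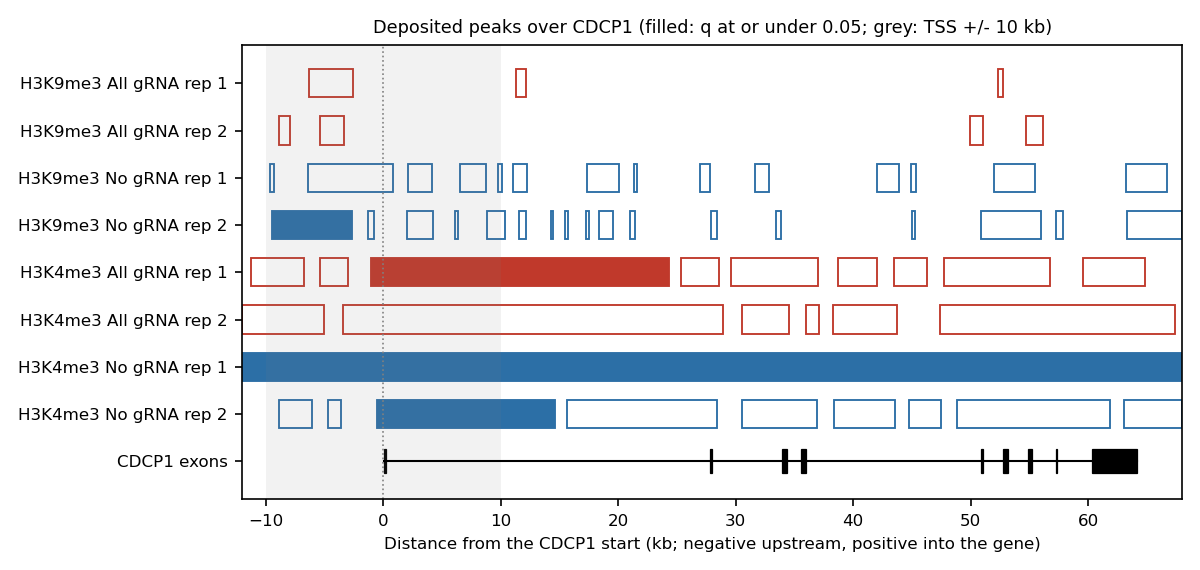
Deposited peaks over CDCP1 in the 8 libraries, drawn by distance from the TSS in kb (upstream negative), with All gRNA in red and No gRNA in blue, the H3K4me3 groups as labelled, and the exons of the canonical transcript at the bottom. Filled boxes have q at or under 0.05 and the grey band is the window within 10 kb. All 4 H3K9me3 libraries share a stretch 3365 to 5410 bases upstream, the No gRNA libraries alone hold peaks in the first 10 kb of the gene, and H3K4me3 boxes cover the start in each library.

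Split at the TSS, the difference stood on both sides. In the 10 kb upstream the All gRNA libraries had 37.5% and 30.01% under H3K9me3, the No gRNA libraries 67.9% and 72.0%. In the 10 kb of the gene after the TSS it was 0% and 0% against 53.1% and 36.5%. The upstream side thus kept H3K9me3 in All gRNA and the downstream side had none. Within 1 kb of the TSS it was 0% in both All gRNA libraries, 92.2% in No gRNA replicate 1 and 8.30% in No gRNA replicate 2. At the start itself the 2 No gRNA libraries therefore lay further apart from each other than the lower of them lay from All gRNA.

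The rest of the gene also held less H3K9me3 in All gRNA, which the choice had read in the peak limits, and part of intron 1 lies in the 10 kb window. Outside the 10 kb window the gene was under H3K9me3 over 2.17% and 4.74% of its bases with All gRNA, against 24.2% and 20.5%. In intron 1 the shares were 2.85% and 0% against 37.4% and 25.1%. H3K9me3 peaks touched 0 and 2 of the 9 exons in All gRNA, against 5 and 6. In each of these measures the groups did not overlap.

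Base by base, the window fell into classes. A region of 2046 bases, chr3:45149787-45151832, lay under H3K9me3 in all 4 libraries, 3365 to 5410 bases upstream of the TSS. It was 10.2% of the window, and its centre is the kept stretch shown above. 5 intervals of 2938 bases in all, 14.7% of the window, were covered in both No gRNA libraries and in neither All gRNA library. The longest, chr3:45142321-45144362, had 2042 bases and lay 2060 to 4101 bases downstream in intron 1, and its centre is the No gRNA stretch shown above. No base was covered in both All gRNA libraries and in neither No gRNA library. A further 3628 bases, 18.1% of the window, were under H3K9me3 in no library.

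H3K4me3 covered the CDCP1 start in every library. Within 1 kb of the TSS its share was 100% in 3 libraries and 76.2% in the fourth, labelled No gRNA replicate 2. These shares exceeded those of 51.5% and 47.5% of promoters under the All gRNA labels, and of 53.5% and 34.2% under the No gRNA labels. The median promoter had 96.5% and 100%, and 91.4% and 100%. At CDCP1 the labelled groups overlapped, and their means differed by 11.9 points. Without the libraries labelled All gRNA replicate 2 and No gRNA replicate 1 the remaining pair differed by 23.8 points, 100% against 76.2%, and with the same libraries exchanged the difference was again 11.9. In the first 10 kb of the gene each library stood at 100%. In the gene outside the 10 kb window the shares ran from 82.5% to 100%. With peaks at q of 0.05 or less alone, they were 26.4% and 0% under the All gRNA labels and 100% and 8.48% under the No gRNA labels.

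With all deposited peaks, the H3K4me3 domain was wide and ran into the gene. These lists also covered much of the genome, 623 and 830 Mb under the All gRNA labels and 933 and 764 Mb under the No gRNA labels. In bins of 10 kb over the 1 Mb around the TSS, the mean H3K4me3 coverage was 47.4% and 58.6% against 64.9% and 56.0%. Peaks less than 1 kb apart were joined, and the run over the TSS had 25391 and 32363 bases under the labels All gRNA replicate 1 and 2. Under No gRNA replicate 1 it had 145311 bases and under replicate 2 only 15116. At that limit the labelled groups overlapped, since the No gRNA libraries held both the widest and the narrowest run. The 145311 bases were 1 deposited peak, chr3:45047014-45192324, which ran over the whole gene and beyond both ends. For that narrowest run, the next peak began just over 1 kb from the end of the run. The same held under the label All gRNA replicate 1, so the limit for joining set both widths. With gaps of up to 3 kb joined, the runs had 120820 and 129638 bases under the All gRNA labels and 206118 and 214184 under the No gRNA labels. The labelled groups then did not overlap, and the library with the narrowest run became the one with the widest. At the limit of 1 kb the direction depended on the labels. The mean width differed by -51336.5 bases as labelled and by 61611.5 with both libraries of conflicting names exchanged. At 3 kb the difference was negative either way, -84922 as labelled and -8442 exchanged.

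These widths were large for a promoter in 3 of the 4 libraries. As labelled, the All gRNA runs were wider than 96.5% and 97.0% of the promoter runs of their own library. The No gRNA runs were wider than 99.9% and 78.3%, so replicate 2 of that label stood apart. A run lay within 1 kb of 14427 starts in all 4 libraries, and the narrowest CDCP1 run exceeded the narrowest run of 95.3% of them, whose median was 4387 bases. The width was among the measures for which CDCP1 was chosen, so these ranks are a description.

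The H3K4me3 peaks at the start had higher fold enrichments than the H3K9me3 peaks, but were weak in places and not all stronger by q. The lowest q of an H3K9me3 peak over the gene and 10 kb upstream was 0.0340. The peak over the TSS had fold enrichments of 2.93 (q = 0.0188) and 2.40 (q = 0.180) under the All gRNA labels. Under the No gRNA labels it had 3.24 (q = 0.00354) and 3.56 (q = 0.000670). With q of 0.05 or less, All gRNA replicate 2 as labelled lost its peak, and the H3K4me3 difference turned to -38.1 points. That turn depends on the labels, since with both libraries of conflicting names exchanged the difference at this limit was 61.9 points.

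Bases under both marks were read from separate libraries, so they need not be the same cells or alleles. 63.6% of the 20001 bases lay under H3K4me3 in all 4 libraries of that mark. Of the H3K9me3 bases of No gRNA, 48.2% and 53.8% lay in that H3K4me3 part. Of those of All gRNA, 0% and 31.8% did. The region under H3K9me3 in all 4 libraries lay outside it altogether, and the longest region of both No gRNA libraries lay wholly inside it.

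The marks were set side by side across all 8 libraries, on values that the choice of CDCP1 had also read, so no test is attached. Within 1 kb of the TSS the H3K4me3 share was 94.1% ± 11.9 and the H3K9me3 share 25.1% ± 44.9 (SD, n = 4 each). H3K4me3 was the higher in 15 of 16 library pairs. Its shares there exceeded those of 34.2% to 53.5% of promoters, so they do not set CDCP1 apart. In the gene outside the 10 kb window H3K4me3 was 88.2% ± 7.99 and H3K9me3 12.9% ± 11.1 (SD, n = 4 each), and the marks did not overlap.

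The surroundings were read at the 13 other protein-coding genes with a TSS within 500 kb. None was called for H3K9me3 or for H3K4me3. Of all promoters, 0.0351% were called lower and 0.180% higher for H3K9me3, and 2.21% and 1.78% for H3K4me3 as labelled. 9 had a lower H3K9me3 mean in All gRNA and 4 a higher, with a median difference of -2.24 points, beside -0.922 over all promoters, of which 57.7% were lower. 4 of the 13 had groups that did not overlap with All gRNA lower, and 2 with All gRNA higher, beside 24.4% and 11.0% of all promoters. In bins of 10 kb over the 1 Mb around the TSS, the mean H3K9me3 coverage came to 16.1% and 17.6% with All gRNA, against 21.6% and 23.3%.

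Nearest the call among the neighbours were KIF15, a mitotic kinesin, and KIAA1143, which start close beside each other, 384.7 and 384.8 kb from the CDCP1 TSS on the side of lower coordinates, and so share most of a window. KIF15 had H3K9me3 shares of 41.5% and 33.0% in All gRNA, against 72.6% and 66.1%. Its gap of 24.6 points is the one just outside the limit, and its H3K4me3 share was 100% in each library. TMEM158, 79.9 kb away on the other side and the nearest of the 13, had 2.70% and 9.97% against 26.8% and 15.98%. At both, the groups did not overlap and All gRNA was the lower.

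The zinc finger genes of the neighbourhood had higher means in All gRNA. ZNF35, 497.7 kb away, had 54.6% and 75.4% in All gRNA against 51.2% and 40.7%. ZNF502 had 95.0% and 100% against 89.6% and 88.5%, and ZNF501 had 100% in each library but No gRNA replicate 2, with 95.0%. Of these 3 genes ZNF501 alone had overlapping groups. KRAB-type and other zinc finger gene clusters are known to carry H3K9me3. Between them and CDCP1 lay starts with little H3K9me3, such as EXOSC7, a subunit of the RNA exosome, with 1.47% and 6.62% against 9.54% and 0%, and ZDHHC3, a palmitoyltransferase, with 1.47% and 3.84% against 8.30% and 0%. Those groups overlapped. TMEM42, TGM4, CLEC3B, LARS2 and LIMD1 differed by -4.58 to 1.54 points.

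The wider CDCP1 pathway was read from a list of 23 genes. None was called for H3K9me3, beside 0.0351% of all promoters called lower and 0.180% called higher. The mean was lower in All gRNA for 18, beside 57.7% of all promoters, and higher for 5, with a median of -2.83 points and a range from -19.8 to 8.19. The groups did not overlap for 9 with All gRNA lower and 2 with All gRNA higher, beside 24.4% and 11.0% of all promoters. For H3K4me3 as labelled, 1 gene was called higher and 1 lower, beside 1.78% and 2.21% of all promoters, and 1 and 2 had groups that did not overlap, beside 6.33% and 7.59%. With both libraries of conflicting names exchanged, the 1 pathway gene called for H3K4me3 was PLG, with a gap of -34.0 points. Under that exchange 225 of all 19962 promoters were called higher and 846 lower.

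Among the kinases, FYN had H3K9me3 shares of 10.7% and 11.5% in All gRNA, against 18.8% and 19.3%, and its groups did not overlap. YES1 had none in All gRNA, against 17.2% and 2.46%. SRC, the kinase for which the family is named, was under no H3K9me3 peak in 3 libraries and had 2.13% in No gRNA replicate 1. SRC was the gene called higher for H3K4me3, at 100% under both All gRNA labels and 48.4% and 33.5% under the No gRNA ones, and with both libraries of conflicting names exchanged its groups overlapped and the call was lost. LYN and PRKCD, which is protein kinase C delta, differed by 3.05 and -0.68 points of H3K9me3.

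The receptors with which CDCP1 has been linked carried little H3K9me3. EGFR had 13.9% and 14.2% in All gRNA against 14.6% and 4.12%, ERBB2 had 1.20% in No gRNA replicate 2 and 0% elsewhere, and MET had 0% and 6.77% against 12.1% and 6.25%. The groups overlapped for each. H3K4me3 lay over all 3 starts in every library, with shares of at least 79.9%.

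The adhesion partners held the largest negative difference of the list. CDH3, P-cadherin, had 2.62% and 22.2% in All gRNA against 32.0% and 32.3%, a difference of -19.8 points. It was also the gene called lower for H3K4me3, at 53.2% and 56.4% under the All gRNA labels and 100% under both No gRNA ones, a call that was likewise lost with the exchange. ITGB1, the integrin beta-1 chain, had 7.45% and 12.2% against 33.1% and 17.8%. CDH1, E-cadherin, had 11.5% and 0% against 17.6% and 15.8%. For these 3 the groups did not overlap for H3K9me3 and All gRNA was the lower, as at 24.4% of all promoters, while CDH2, SDC1 and SDC4 overlapped and differed by -2.83 to 0.95 points.

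CD6, a receptor on T cells that binds CDCP1, had 10.5% and 0% against 19.1% and 5.65%, with overlap. Of the proteases that can cut CDCP1, PLAU, the urokinase, had 24.4% and 18.6% against 27.6% and 33.0%. PLG, plasminogen, a liver gene, had the highest H3K9me3 of the list in All gRNA, 45.2% and 45.8%, against 34.7% and 39.9%, and was the higher there. ST14, matriptase, was under H3K9me3 only in All gRNA replicate 2, at 5.67%. Its H3K4me3 was 0% under both All gRNA labels, and 2.55% and 100% under the others. For H3K9me3 the groups of PLAU and PLG did not overlap and those of ST14 did.

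Of the transcription factors, the AP-1 genes JUN, FOS and FOSL1 had differences of -5.11, -3.22 and -2.47 points, with groups that did not overlap, as at 24.4% of all promoters with All gRNA lower. Their H3K4me3 share was 100% in all 4 libraries. EPAS1, which encodes a hypoxia-inducible factor, differed by -2.30 points and MZF1, a zinc finger factor, by -7.91, both with overlap. The -40.5 points of CDCP1 lay outside the range of the list, but CDCP1 was chosen on this contrast, so that comparison carries no support.

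**Figure D2:**
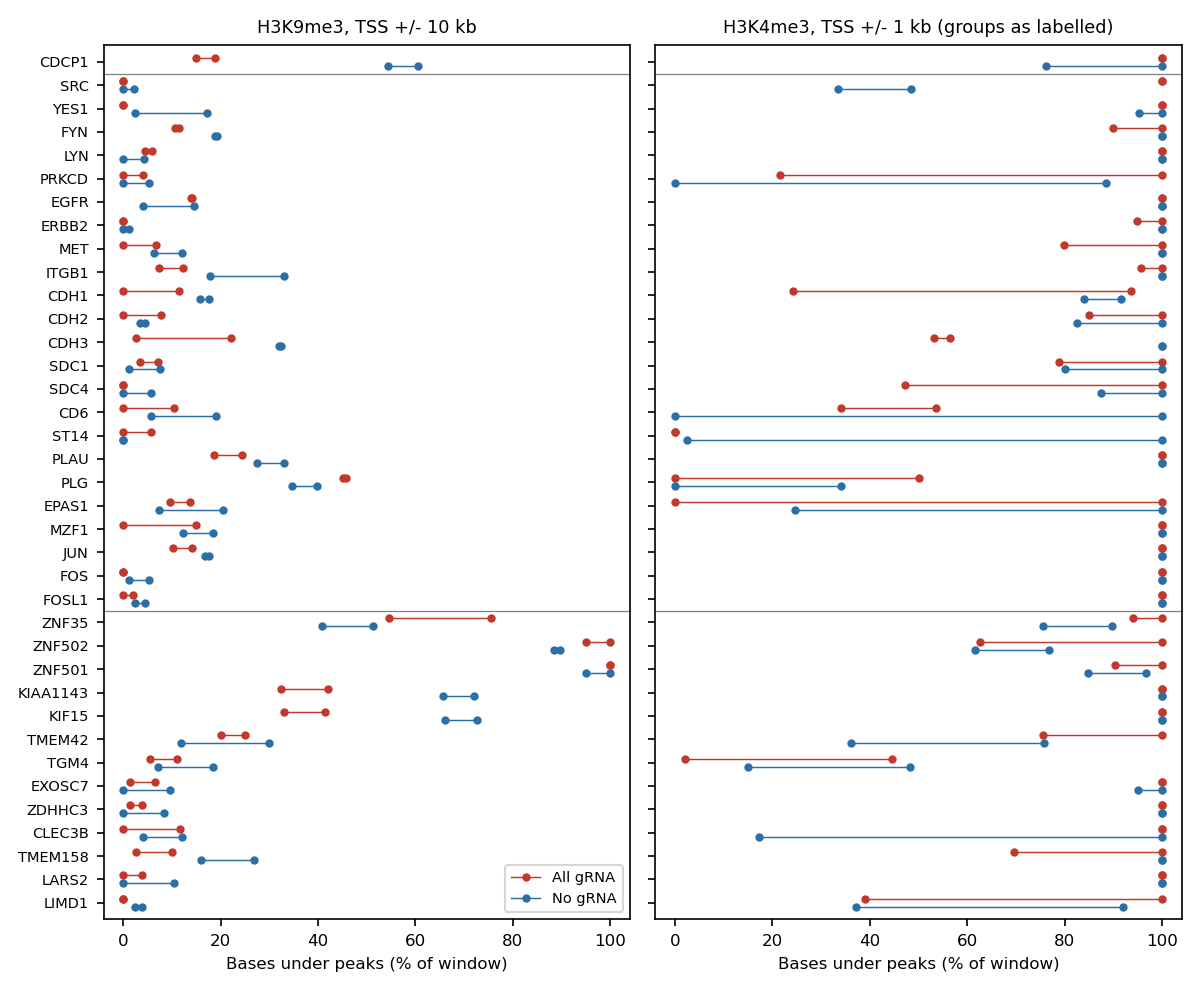
Share of bases under peaks in percent of the window at CDCP1 (top), the 23 pathway genes (middle) and the 13 neighbours within 500 kb (bottom), for H3K9me3 within 10 kb and H3K4me3 within 1 kb of the TSS. Red points joined by a line are the All gRNA libraries and blue points the No gRNA libraries, as labelled. The H3K9me3 groups lie furthest apart at CDCP1, which was chosen on this contrast, followed by KIF15 and KIAA1143.

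The promoters with shares most like those of CDCP1 over all 8 libraries were ZNF532, GPAM, MIOS, ENTPD6 and EIF2AK2, with mean absolute differences from 6.70 to 7.97 points. ZNF532, on chromosome 18, was nearest, with H3K9me3 of 21.9% and 13.1% in All gRNA against 53.2% and 36.9% and with H3K4me3 of 100% in each library. GPAM, on chromosome 10, had 21.1% and 20.1% against 53.5% and 33.8%. MIOS, on chromosome 7, had 30.8% and 32.6% against 51.4% and 54.3%. The H3K9me3 gaps of these 3 were 14.9, 12.7 and 18.8 points, all under the limit. ENTPD6 overlapped, and EIF2AK2 had a gap of 2.67 points.

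The marker genes were read for H3K4me3, which lay within 1 kb of 83.5% to 88.9% of all starts in a library and of 14427 of 19962 in all 4. It lay at the starts of 7 of 7 mesenchymal markers (VIM, CD44, AXL, CAV1, FN1, SPARC, TGFBI) in all 4 libraries, with median shares of 100%. Of 7 epithelial or luminal markers 5 had it in all 4, KRT8 at 100% throughout, and ESR1 in none. Both counts are read against that background and do not by themselves identify the cells. None of these markers was called for either mark. The shares of all promoters called were 0.0351% lower and 0.180% higher for H3K9me3, and 2.21% and 1.78% for H3K4me3. An H3K4me3 share is no sign of expression by itself.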

How the data were processed

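Native ChIP-seq peak lists of 8 SUM159 libraries were analysed. The paper's methods give fastp trimming, bowtie2 mapping to hg38, removal of excluded regions and duplicates, and MACS2 broad peaks. The submitters' processing notes instead name bcl2fastq 2.17, Trimmomatic 0.33, Bowtie 1.1.2 and MACS2 2.1.0, and which made these files is not settled. The authors deposited for each peak a score, the fold enrichment as a ratio, the −log10 p and the −log10 q. Whether input was the control is not given in the sources used here. Lists hold peaks from −log10 p of about 1 upwards and no read counts, so depth is unknown, and no interval for counting error can be given.

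Peaks were merged per library, and the share of each window under peaks was computed for 19962 protein-coding genes (GENCODE 44, chromosomes 1 to 22 and X) with Python 3.11.15, numpy 2.4.6, pandas 2.3.3 and scipy 1.17.1, after a test on simulated peaks. The reference had the same build as the peaks. Genes were named by rule: CDCP1, ZEB1, genes within 500 kb, the pathway list, and the 5 promoters with the smallest mean absolute difference. The members and lists were chosen with earlier results of these data known. Samples were grouped by GEO's labels. Exact permutation tests of one mark against the other were planned and run, but are not reported, since the choice of CDCP1 had read the values they use. The result of a further list, markers of other cell types, is not reported here.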

Additional observations from a re-analysis of the deposited data

How the results depend on the processing

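The H3K9me3 difference at CDCP1, -40.5 points, moved to -16.9 with peaks at q of 0.05 or less, to 0 at 0.01 and to -27.5 within 25 kb. It stayed within the spread of the replicates at equal covered length, at the canonical TSS and within 5 kb, and leaving out a library gave -43.6 to -37.4. The cut to equal covered length shortened mainly the All gRNA lists. The H3K4me3 difference as labelled, 11.9 points, reversed to -38.1 at q of 0.05 or less and to -88.1 at 0.01, and was 0 within 500 bases. Leaving out a library gave 0 (without No gRNA replicate 2) to 23.8 (without No gRNA replicate 1). The width difference, -51336.5 bases, ranged from -116434 to 13761 when a library was left out, and reversed without No gRNA replicate 1. Without both libraries whose names conflict, chosen after seeing the data, the H3K4me3 difference was 23.8 points and the width difference reversed to 10275 bases. With both exchanged, also chosen after seeing the data, the H3K4me3 difference was 11.9 points, or 61.9 at q of 0.05 or less and 11.9 at 0.01, and the width difference reversed to 61611.5 bases. Joining gaps of up to 3 kb gave -84922 bases as labelled and -8442 exchanged. The causes were not tested. A replicate block could not change the 3 differences of -40.5 points, 11.9 points and -51336.5 bases, since pairing leaves a difference of means as it is. The same holds for the mark differences, 68.9 and 75.3 points. For the 3 differences the SD of single libraries, pooled over the groups, was 3.63 points, 11.9 points and 65190.8 bases. The SD of the differences between libraries of one replicate number was 1.74 points, 16.8 points and 96991.7 bases. These are unlike statistics, so a step from one to the other is not a change in spread. The correlation of the replicates' deviations was 0.026 for H3K9me3 and 0.015 for H3K4me3, so the numbers name samples and were not taken to pair them. The mark differences kept their direction in all alternatives.

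Promoter counts with a library left out are not given. A group then holds 1 library, and the gap between the nearest libraries can only stay or widen. The 7 lower and 36 higher H3K9me3 promoters became 1 and 45 at q of 0.05 or less, 2 and 26 at 0.01, and 0 and 3 at a gap of 50 points. The 356 higher and 442 lower H3K4me3 promoters became 27 and 323 at q of 0.05, 3 and 201 at 0.01, 84 and 121 at 50 points, and 408 and 285 at equal length. They were 225 and 846 with both libraries whose names conflict exchanged. With 2 libraries a group and unknown depth, smaller differences at 1 promoter are not separable from the spread.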
